A study of Homo sapiens with 2 samples.

Results

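Ribosomal protein pseudogenes are copies of the genes for the proteins of the cytosolic ribosome, and 100 of them were expressed in Stage 6 cells. They were chosen by name and by level. The gene name had to be that of a ribosomal protein gene followed by P and a number, which 547 of the 55797 genes in the files had, and the level had to be 1 FPKM or more in 1 or both of the 2 libraries. FPKM is the number of fragments per kilobase of transcript, scaled to the size of the library. The 100 expressed pseudogenes are 18.3% of the 547. Another 326 were listed at exactly 0 in both libraries, and 121 lay above 0 but below 1. Because the rule used the measured FPKM, the levels and the differences between libraries that follow are descriptions without a test.

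Ribosomal proteins are named RPS when they belong to the small subunit and RPL when they belong to the large subunit, with RPLP0, RPLP1 and RPLP2 forming the stalk and RPSA lying in the small subunit. Most of their pseudogenes are processed pseudogenes. These arise when a mature mRNA is copied into DNA by retrotransposon enzymes and inserted elsewhere in the genome, so that they lack the introns and usually the promoter of the parent gene. They then collect mutations, and the identity to the parent mRNA falls with time. In short-read RNA-seq, a read from a stretch that a pseudogene shares with its parent matches both places.

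The data compare 1 library of live cells with 1 library of processed cells. Both came from the human embryonic stem cell line H1, differentiated stepwise to Stage 6, where the culture contains insulin-expressing cells beside other cells. Live cells were neither fixed nor stained, and their RNA was taken with the RNeasy kit. Processed cells were fixed with 4% paraformaldehyde, permeabilized, stained with antibodies and run through the sorter with every cell kept, and their RNA was taken with a modified RecoverAll kit, so that fixation, staining, sorting and extraction cannot be told apart. RNA was selected for poly-A, and paired reads of 80 nt were aligned to GRCh37/hg19. The comparison asks whether the processing changed the measured levels. With 1 library per condition, there is no replicate error and no test between conditions. The files hold FPKM and no counts, so the fragments behind each value are not known. FPKM over all genes summed to 510713 in live and 499398 in processed cells. All 6 endocrine and pancreatic markers examined were present, between 16.8 and 1794 FPKM in live and between 16 and 1741 in processed cells. The 3 markers of undifferentiated stem cells lay between 1.27 and 23.5 in live and between 7.34 and 18.1 in processed cells. The 3 blood and immune markers were below 1 in both libraries, while 3 liver markers lay between 42.3 and 550 and 3 mesenchymal markers between 8.33 and 31.9. In a mixed culture, a lower share of a cell type and less RNA per cell cannot be told apart.

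The sequences show how close the pseudogenes can be to their parents. RPL7A, a protein of the large subunit, had 6 expressed pseudogenes of 21 found by name, which is the most of any parent together with RPSA. A stretch of its coding sequence, nucleotides 45 to 164 counted from the start codon, is given with the same stretch of 4 pseudogenes, in GRCh37 coordinates. RPL7AP6 lies at chr14:70352694-70352813 (minus strand), RPL7AP30 at chr4:113709871-113709990 (minus strand), RPL7AP31 at chr4:57222342-57222461 (plus strand) and RPL7AP34 at chr6:64259251-64259370 (minus strand). Capitals mark bases that differ from the parent mRNA.
RPL7A: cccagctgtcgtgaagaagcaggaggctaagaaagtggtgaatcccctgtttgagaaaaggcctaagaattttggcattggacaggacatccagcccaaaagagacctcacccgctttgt
RPL7AP6: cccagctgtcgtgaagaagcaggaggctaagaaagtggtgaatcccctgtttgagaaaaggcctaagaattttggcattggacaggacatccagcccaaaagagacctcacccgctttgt
RPL7AP30: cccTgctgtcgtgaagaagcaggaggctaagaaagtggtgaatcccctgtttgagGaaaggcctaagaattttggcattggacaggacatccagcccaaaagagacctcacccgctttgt
RPL7AP31: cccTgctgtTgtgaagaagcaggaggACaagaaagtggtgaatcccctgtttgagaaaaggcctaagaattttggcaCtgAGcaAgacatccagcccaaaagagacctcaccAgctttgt
RPL7AP34: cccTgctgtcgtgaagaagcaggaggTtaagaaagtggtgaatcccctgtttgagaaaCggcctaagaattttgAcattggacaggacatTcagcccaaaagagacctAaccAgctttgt

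In this stretch, RPL7AP6 had 0 differences from the parent, RPL7AP30 had 2, RPL7AP31 had 9 and RPL7AP34 had 7. Over the aligned part of the 798 nt coding sequence, the differences numbered 12, 23, 47 and 55 in that order. The FPKM in live and processed cells was 538 and 553 for RPL7AP6, 62.5 and 41.0 for RPL7AP30, 10.1 and 10.4 for RPL7AP31, and 0.438 and 2.85 for RPL7AP34. The parent RPL7A itself measured 351 and 298. The closest copy was therefore above its parent in both libraries, and the most diverged of these 4 was the lowest in both.

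RPL9, another protein of the large subunit, was a parent far below its copies. It measured 14.1 FPKM in live cells, with bounds of 13 and 15.2, and 10.9 in processed cells, with bounds of 9.86 and 12, the lowest value of the 47 parents. Its pseudogene RPL9P9 measured 482 and 425, RPL9P8 measured 481 and 415, and RPL9P7 measured 209 and 195. The 3 pseudogenes held 98.8% of the FPKM of parent and copies in live cells and 99% in processed cells. Nucleotides 247 to 366 of the RPL9 coding sequence contain every coding difference that these copies carry. RPL9P7 lies at chrX:23855072-23855191 (minus strand), RPL9P8 at chr15:83041268-83041387 (minus strand) and RPL9P9 at chr15:82664727-82664846 (minus strand), and capitals again mark differences from the parent.
RPL9: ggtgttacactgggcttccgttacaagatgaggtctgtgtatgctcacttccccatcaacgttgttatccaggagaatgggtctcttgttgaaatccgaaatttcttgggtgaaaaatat
RPL9P7: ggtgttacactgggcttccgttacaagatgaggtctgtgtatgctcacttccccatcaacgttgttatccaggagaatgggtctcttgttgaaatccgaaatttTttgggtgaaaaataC
RPL9P8: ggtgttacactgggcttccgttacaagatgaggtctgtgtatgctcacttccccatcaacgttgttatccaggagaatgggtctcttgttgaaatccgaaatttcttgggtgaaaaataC
RPL9P9: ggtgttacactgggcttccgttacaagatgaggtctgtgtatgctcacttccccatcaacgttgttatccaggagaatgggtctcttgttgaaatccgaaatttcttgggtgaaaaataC

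RPL9P8 and RPL9P9 carried 1 difference in the 576 nt coding sequence and RPL9P7 carried 2. The difference at coding position 366 is common to all 3. RPL9P8 and RPL9P9 have the same sequence in this stretch. Neither holds an 80-nt window, the length of a read, that occurs only once in the genome and in no functional ribosomal protein transcript. They share 87.1% and 87.2% of their windows with the RPL9 mRNA. The low level of RPL9 therefore also depends on how shared reads were divided, which its bounds need not cover.

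A copy can also be identical throughout. RPL39P3 at chr6:74082834-74082986 (minus strand) carried 0 differences in the 153 nt coding sequence of RPL39, a very small protein of the large subunit that lines the tunnel through which the new chain leaves. There are therefore no capitals in its sequence.
RPL39: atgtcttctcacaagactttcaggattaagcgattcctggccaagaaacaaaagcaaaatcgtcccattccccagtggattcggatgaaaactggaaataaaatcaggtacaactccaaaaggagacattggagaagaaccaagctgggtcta
RPL39P3: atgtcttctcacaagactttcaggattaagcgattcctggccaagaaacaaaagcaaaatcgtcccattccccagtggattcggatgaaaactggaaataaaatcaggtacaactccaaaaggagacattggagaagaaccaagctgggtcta

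RPL39P3 measured 1486 FPKM in live and 1226 in processed cells, against 384 and 340 for RPL39. Both listed values of the pseudogene were above both listed values of the parent. However, every window of RPL39P3 as long as a read also occurs in the RPL39 mRNA. This order therefore depends on how shared reads were divided. The RPL39P3 locus of 156 nt is also shorter than the average fragment length given in the paper. How this affected its FPKM was not tested, so the values do not establish a difference in level. The files give the status of RPL39P3 as LOWDATA in both libraries, with lower bounds of 0. This is the label for loci that were too complex or too thinly covered for a reliable estimate.

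High identity did not always go with a high level. RPS26, a small subunit protein near the channel where mRNA leaves, is shown with RPS26P8 at chr17:43686015-43686134 (plus strand), for nucleotides 79 to 198 of the coding sequence.
RPS26: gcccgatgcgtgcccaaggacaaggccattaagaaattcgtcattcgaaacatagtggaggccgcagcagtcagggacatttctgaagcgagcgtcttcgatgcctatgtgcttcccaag
RPS26P8: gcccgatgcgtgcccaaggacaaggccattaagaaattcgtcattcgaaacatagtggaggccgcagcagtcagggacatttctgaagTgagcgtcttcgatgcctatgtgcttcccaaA

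RPS26P8 had 3 differences in the 345 nt coding sequence, of which 2 are in this stretch, yet measured 4.52 and 5.77 FPKM beside 256 and 263 for RPS26. RPS26P6, with 99.27% identity, measured 8.09 and 9.17. RPS26P47, with 99.54% identity, measured 0.142 in live and 3.29 in processed cells and was LOWDATA in both. All 3 copies were far below their parent in both libraries.

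Levels of the 100 expressed pseudogenes spanned from 0 to 2377 FPKM in live cells, with a median of 12.1, and from 0 to 2490 in processed cells, with a median of 13.7. In each library, 27 were at 100 or more, 27 lay between 10 and 100, and 46 were below 10. A few copies held most of the signal. The 3 highest held 33.1% of the pseudogenes' FPKM in live and 34.3% in processed cells, and the 20 highest held 86.7% and 85.1%. The sum over the 100 was 16153 in live and 15496 in processed cells, or 3.16% and 3.10% of the FPKM of all genes. The 47 parent genes summed to 34510 and 32944. The pseudogenes thus reached 46.8% of their parents' sum in live and 47.0% in processed cells. The single pseudogene was usually far below its parent, with a median of 2.33% in live and 2.2% in processed cells, and 32 were below 1% in both. In contrast, 13 were above their parent in both libraries.

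The highest was RPL41P1 on chromosome 20, a copy of the gene for the smallest ribosomal protein, with 2377 FPKM in live (bounds 2350 to 2403) and 2490 in processed cells (2462 to 2517). Its parent RPL41 measured 2188 and 2197. RPL41P1 matched its parent at 100% over 278 aligned nt. Every window of this stretch as long as a read also occurs in the RPL41 mRNA. The levels of RPL41P1 and RPL41 therefore depend on how shared reads were divided, which the bounds need not cover. RPL3P4 on chromosome 14 measured 1484 and 1592, against 1329 and 1165 for RPL3, whose protein lies close to the site of peptide bond formation. RPL3P4 covers 34.7% of the RPL3 coding sequence, so the high level concerned a fragment of the gene.

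RPS3AP6 on chromosome 15 measured 797 and 878, more than its small subunit parent RPS3A at 315 and 353. RPL6P27 on chromosome 18 measured 828 and 800, against 652 and 580 for the large subunit gene RPL6, and its processed value has the status FAIL, the label for an estimate that the software could not complete. RPS23P8 on the X chromosome measured 591 and 637, below RPS23 at 995 and 829. RPS23 lies in the decoding centre of the small subunit. These 3 had log2 ratios of processed to live, taken here and throughout as log2((processed FPKM + 1) / (live FPKM + 1)), of 0.14, -0.05 and 0.11.

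Among the other copies of the 10 highest, RPL7AP6 had a ratio of 0.04 and RPL39P3 one of -0.28. RPS2P5 on chromosome 12 measured 859 FPKM in live (850 to 868) and 547 in processed cells (541 to 552), a log2 ratio of -0.65, while RPS2 measured 749 and 778, a ratio of 0.06. RPSAP58 on chromosome 19 measured 746 (739 to 753) and 535 (528 to 541), a ratio of -0.48, while RPSA, which is also known as the laminin receptor, stayed at 365 in both. RPLP0P6 on chromosome 2 measured 622 and 501, a ratio of -0.31, and the stalk protein gene RPLP0 measured 999 and 825, a ratio of -0.28. In RPS2P5, RPSAP58 and RPLP0P6 the copy was lower in processed cells by more than the bounds of each library. The bounds of RPLP0P6 were 617 to 627 in live and 496 to 506 in processed cells. Only in RPLP0P6 did copy and parent have similar ratios.

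Whether a pseudogene was expressed went along with its identity to the parent mRNA, which the rule did not use. Of the 547, 540 aligned to the parent in their name, and the median identity was 96.0% for 99 expressed pseudogenes and 87.5% for the 441 others. Below 80% identity, 3 of 69 pseudogenes were expressed (4.35%). The share was 2.11% of 95 between 80 and 85%, 2.80% of 143 between 85 and 90%, and 20.7% of 145 between 90 and 95%. It was 54.4% of 57 between 95 and 98%, 90.9% of 11 between 98 and 99%, and 95% of 20 from 99% up. The increase from 90% upwards appeared in each class. Only 2 of the 31 pseudogenes with at least 98% identity were not expressed, and both were copies of RPS26. RPS26P3 measured 0.184 and 0.836 at 99.09% identity, and RPS26P31 measured 0 and 0.0897 at 98.3%.

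Above 90% identity, the level of the expressed pseudogenes followed the same order. Their median FPKM, averaged over both libraries, was 2.10 at 90 to 95% identity, 14.6 at 95 to 98%, 293 at 98 to 99% and 448 from 99% up. The few expressed below 90% did not follow it, with medians of 2.46 for 3 below 80%, 11.7 for 2 between 80 and 85%, and 4.38 for 4 between 85 and 90%. Over 99 expressed pseudogenes, Spearman's rho of level with identity was 0.72, and over all 540 aligned pseudogenes it was 0.65. These points share the same pair of libraries and, within a family, the same parent, so the coefficients only describe the files.

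**Figure D1:**
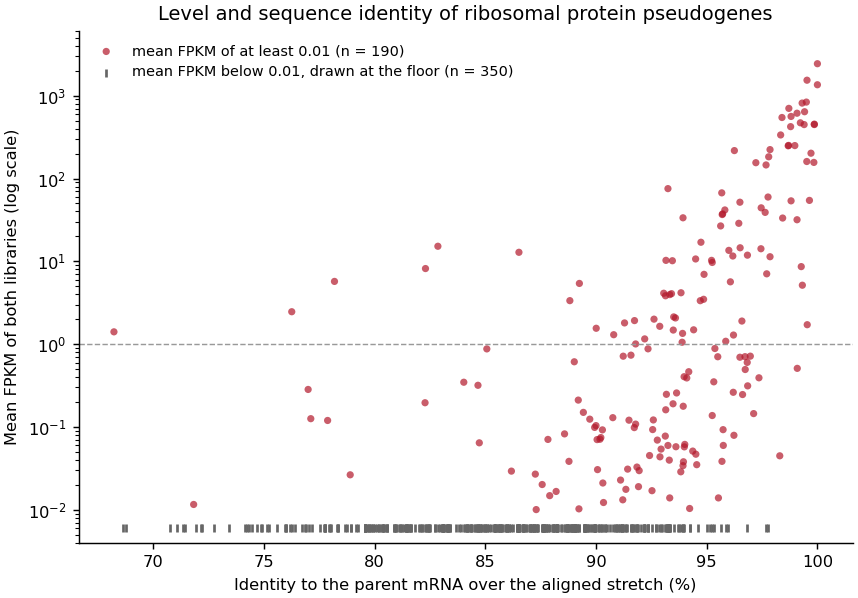
Identity of each of 540 ribosomal protein pseudogenes to its parent mRNA (x axis, %) against the mean FPKM of live and processed cells (y axis, log scale), with 1 point per gene, the dashed line at an FPKM of 1, and genes below 0.01 drawn as ticks at the bottom. Points at 100 or more all lie at 96.2% identity or higher, and most copies below 90% sit at the bottom.

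Stretches as long as a read showed the same pattern. Of the 99, 61 shared at least 1 identical 80-nt window with the parent mRNA, and their median level was 54.4 FPKM. The 38 that shared none had a median of 2.30 and reached at most 41.7. All 27 pseudogenes with a mean level of 100 or more shared such windows. For 6 of the 99, no window occurred only once in the genome and outside the functional ribosomal protein transcripts, and for 26 every window did. A read from a shared window cannot be assigned by its own sequence, and how the software divided such reads is not given in the sources used here. The levels of the 61 are therefore uncertain as levels of the pseudogene alone, to a degree that differs between them. In RPL41P1, 0% of windows occurred only once and outside those transcripts, and in RPL24P2 99.75% did. How much of the levels of the 61 is due to the parent mRNA was not tested. The levels of the parents, and each percent of parent, carry the same limit. So do some of the 38, whose windows recur elsewhere. Windows found only once and outside those transcripts were 0% in RPL32P29 and RPL23AP4, 19.6% in RPL7P22 and 47.6% in RPL22P11.

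A reading frame of the parent's full length, from start to stop codon without a break, was open in 30 of the 99 expressed pseudogenes and in 18 of the 441 that were not expressed. The expressed ones with an open frame had a median of 156 FPKM, and the others had a median of 5.72. Level also went with identity, with a median of 423 FPKM at 98% identity or more and 5.69 below 98%. Frame and identity were not separated here, and the part of either in the level was not tested. Among the 10 highest, RPL41P1, RPL39P3, RPS3AP6, RPS2P5, RPSAP58, RPLP0P6 and RPL7AP6 had an open frame, and RPL3P4, RPL6P27 and RPS23P8 did not. The search stayed within each locus. RPL3P4 and RPS23P8 cover only 34.7% and 76.2% of the parent's coding sequence, so a full-length frame could not be found in them.

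A later annotation, GENCODE release 44 on GRCh37, held 97 of the 100. It classed 83 as processed pseudogenes, 10 as transcribed processed pseudogenes, 1 as an unprocessed and 1 as a transcribed unprocessed pseudogene, and 2 as pseudogenes without a further class. It gave 83 a single exon and 14 several exons. The 100 lay on 21 chromosomes, and the median locus was 574 nt long. The later release kept the name of 92. The single best-scoring stretch was to another gene than the named parent in RPL32P3, described with the ratios, and in RPS26P55. RPS26P55 did not align to RPS26 and matched RPL29 best, and the later release names it RPL29P33. Nucleotides 3 to 92 of the RPL29 coding sequence are shown with RPS26P55 at chr19:34787554-34787643 (minus strand), where 3 bases differ.
RPL29: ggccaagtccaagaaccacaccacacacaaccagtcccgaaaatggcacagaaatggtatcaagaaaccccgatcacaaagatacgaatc
RPS26P55: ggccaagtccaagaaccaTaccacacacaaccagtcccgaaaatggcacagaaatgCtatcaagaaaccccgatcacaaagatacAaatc

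Over 460 aligned coding nucleotides, RPS26P55 had 23 differences from RPL29, a large subunit protein.

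Within families, the copy closest to the parent was mostly the highest. The 100 pseudogenes had 47 parents, of which 18 had 1 copy among the 100 and 29 had at least 2. In 25 of these 29 the highest copy was also the most identical one, as it was in 10 of the 14 families with at least 3. In the RPL7A family the remaining copies found by name were RPL7AP66 (97.6% identity, 40.1 and 37.9 FPKM, LOWDATA) and RPL7AP11 (96.0%, 12.1 and 15.0). They stand beside RPL7AP6 at 98.4%, RPL7AP30 at 96.5%, RPL7AP31 at 93.2% and RPL7AP34 at 92.9%. RPL7AP30 was thus above RPL7AP66 in both libraries although it was less identical.

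The copies of RPL7A made up 65.4% of the family's FPKM in live and 68.9% in processed cells. RPSA also had 6 expressed copies, of 19, which made up 69.0% and 62.8%, most of it from RPSAP58. RPS2, with 5 of 15, had 62.5% and 57.9% in copies. RPS7, a small subunit protein gene with 4 expressed copies of 14, had 81.8% and 80.6%. In 12 families the copies held more than 50% of the FPKM in both libraries. At the other end, RPL23A had 3 expressed copies of 23, which held 2.23% and 2.72%, and RPL21 had 3 of 32, which held 14.4% and 12.7%. These shares count only copies found by the name rule. RP11-3P17.3, which the later annotation names RPL23AP42, measured 256 and 224 FPKM and is not in the share of RPL23A. Among copies found by name, parents with more than 20 of them had both large and small shares. Shares over all copies of a family were not computed.

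**Figure D2:**
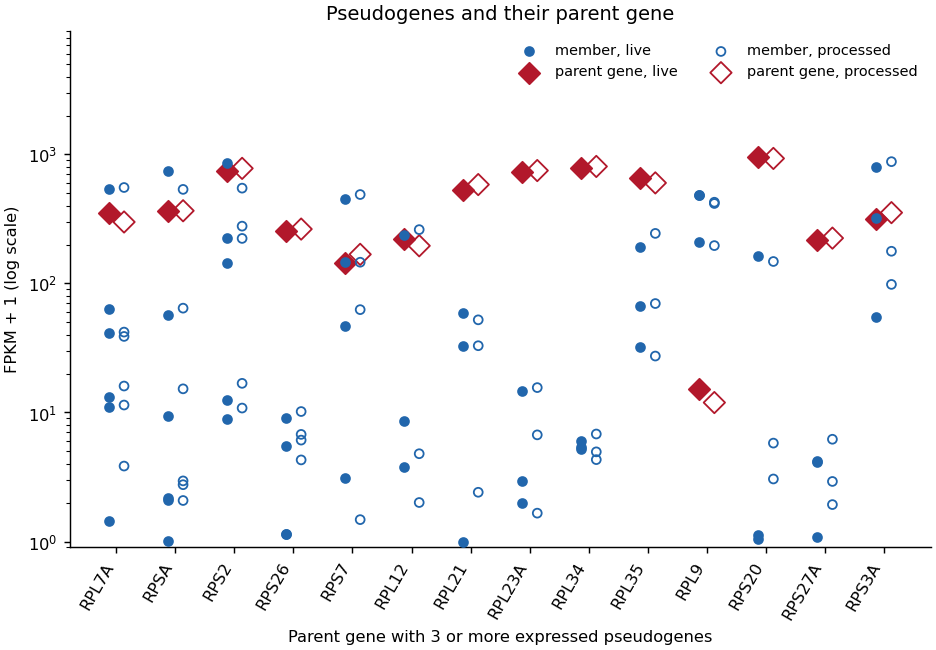
FPKM + 1 (log scale) of each expressed pseudogene found by name (circles) and its parent gene (diamonds). Shown are the 14 families with at least 3 such pseudogenes, with live cells filled and processed cells open, 1 library each. The parent lies within or above its copies in 13 families, and RPL9 lies below all 3 of its copies in both libraries.

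Added up by family, parent and copies found by name together differed little between libraries. The log2 ratio of these sums lay between -0.60 (RPL22) and 0.15 (RPL7) over the 47 families, and 0 families passed 2-fold. The sums leave out copies under other names. For RPL7 these include RP11-122C9.1, now RPL7P9, at 746 and 764 FPKM. For RPL22 they include RP11-641D5.1, now RPL22P1, at 310 and 314 and LOWDATA in both libraries. The extremes therefore hold only for the sums as formed here. The RPL7A family summed to 1014 and 958, the RPS3A family to 1488 and 1504, and the RPS2 family to 1996 and 1850. Copies inside one family could nevertheless differ in opposite directions. RPS3AP26, which was LOWDATA, measured 323 in live and 177 in processed cells, a log2 ratio of -0.87, while RPS3AP5 measured 53.6 (51.8 to 55.5) and 97.3 (94.7 to 99.9), a ratio of 0.85. The summed ratio of this family was 0.02. RPS2P55 measured 144 (140 to 147) and 222 (218 to 227), a ratio of 0.63, beside the lower processed value of RPS2P5.

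Between live and processed cells, the expressed pseudogenes were centred close to no difference. The median log2 ratio was 0.02 over the 100, against -0.09 over all 17326 genes that reached 1 FPKM in 1 or both libraries. The middle of the pseudogenes, from the first to the third quartile, ran from -0.29 to 0.43, and the whole range from -1.93 to 2.42. There were 51 above 0 and 49 below. The median size of the log2 ratio was 0.33 for the pseudogenes and 0.34 for all expressed genes.

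More than 2-fold higher in processed cells were 13 of the 100 pseudogenes, beside 6.57% of all expressed genes. More than 2-fold lower were 7, beside 6.19% of all expressed genes. The bounds of both libraries did not overlap for 60 pseudogenes (34 higher and 26 lower in processed cells), beside 71.8% of all expressed genes. These bounds cover each library on its own and not the spread between cultures. The pseudogenes beyond 2-fold were low ones. Of the 13 higher, 12 were below 1 in live cells, and of the 7 lower, 5 were below 1 in processed cells, so that they entered the selection through the other library alone. Among the 79 with at least 1 FPKM in both libraries, 1 was more than 2-fold higher and 2 were lower. The share of all genes under this filter is not given here, so these counts have no background.

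Split by mean level, 15 of the 27 pseudogenes below 3 FPKM were beyond 2-fold in either direction (55.6%), against 30.1% of genes at that level. Between 3 and 10 FPKM the shares were 23.5% of 17 pseudogenes and 11.5% of genes. Between 10 and 100 FPKM they were 3.45% of 29 and 3.49%. At 100 or more, 0 of 27 pseudogenes passed, against 1.86% of 646 genes, and the log2 ratios of the 27 lay between -0.87 and 0.63. Identity moved with level in this comparison. The 29 pseudogenes with at least 98% identity had a median size of the log2 ratio of 0.16 at a median level of 423 FPKM, and the 70 below 98% had 0.59 at 5.69 FPKM.

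**Figure D3:**
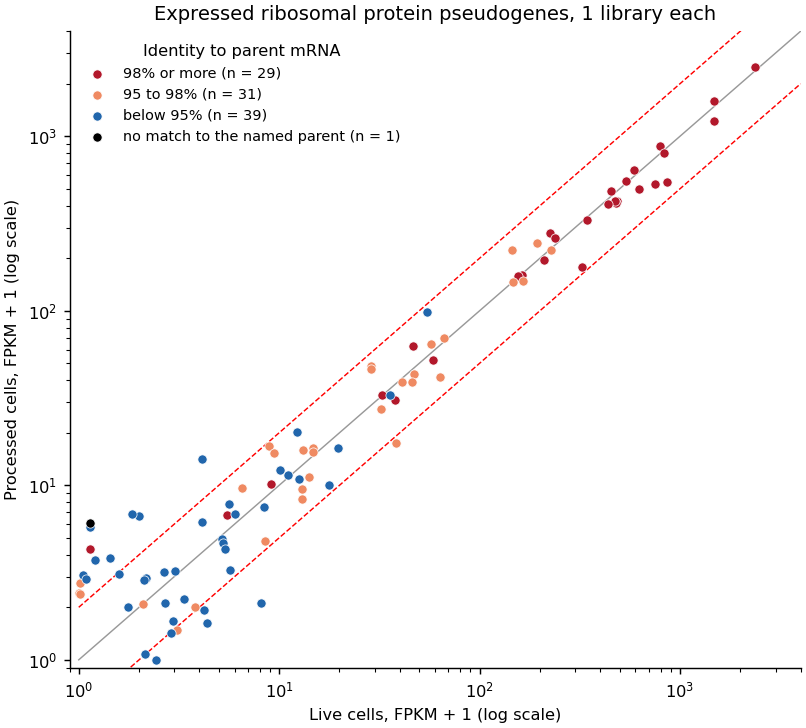
FPKM + 1 in live (x axis) and processed cells (y axis) of the 100 expressed pseudogenes on log scales, 1 library each, coloured by identity to the parent mRNA, with the line of equal values and dashed 2-fold lines. Pseudogenes with at least 98% identity gather along the line of equal values, and the 13 and 7 points beyond 2-fold lie at low FPKM.

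Of the pseudogenes with status OK in both libraries, the 6 with the largest positive ratios were all low in live cells. RPS26P55 on chromosome 19 measured 0.138 FPKM in live (bounds 0 to 0.389) and 5.11 in processed cells (3.88 to 6.34), a log2 ratio of 2.42. RPS19P1 on chromosome 20 measured 0.840 (0.482 to 1.20) and 5.85 (4.88 to 6.82), a ratio of 1.90. Its parent RPS19, a small subunit gene known for its mutations in Diamond-Blackfan anaemia, measured 630 and 629. The parent therefore had the same level in both libraries to within 1 FPKM.

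RPL32P3 on chromosome 3 measured 3.12 (2.71 to 3.54) and 13.2 (11.4 to 15.1), a ratio of 1.79. It is the 1 member of the 13 with at least 1 FPKM in both libraries, and its parent RPL32 measured 616 and 599. RPL32P3 is the transcribed unprocessed pseudogene among the 100. Its longest-scoring stretch against RPL32 had 82.3% identity over 209 nt and covered 46.2% of the coding sequence. Only this single stretch of the locus, chr3:129101765-129118498, was counted, so the cover by all its parts is not known. The stretch with the best score of all was to RPL14. Whether that stretch lies in coding sequence was not examined, so it does not make RPL32P3 a copy of RPL14. RPL23AP53 measured 0.993 and 5.71, RPL15P2 measured 0.205 and 2.75, and RPS20P35 measured 0.0549 and 2.05, with ratios of 1.75, 1.64 and 1.53. Their parents RPL23A, RPL15 and RPS20 had ratios of 0.03, -0.11 and -0.04. All 6 pseudogenes had bounds that did not overlap between libraries, and none of the 6 parents was beyond 2-fold. Among the LOWDATA pseudogenes, RPS20P33 measured 0.132 and 4.79, a ratio of 2.36, with lower bounds of 0 and 76.3% identity.

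The 6 with the largest negative ratios were led by RPL22P11 on chromosome 2, with 7.11 FPKM in live (5.94 to 8.27) and 1.13 in processed cells (0.637 to 1.62), a ratio of -1.93. Its parent RPL22 was also lower in processed cells, at 203 and 137, a ratio of -0.56. RPL29P11 on chromosome 3 measured 37.1 (35.0 to 39.3) and 16.4 (14.9 to 17.9), a ratio of -1.13, while RPL29 measured 509 and 548. RPL29P11 had the highest level of the 20 pseudogenes beyond 2-fold. RPS27AP2 measured 3.21 and 0.934, RPS7P4 measured 2.10 and 0.478, RPL23P2 measured 1.89 and 0.424, and RPL12P1 measured 2.79 and 1.01, with ratios of -1.12, -1.07, -1.02 and -0.92. Their parents RPS27A, which makes a ribosomal protein fused to ubiquitin, RPS7, RPL23 and RPL12 had ratios of 0.06, 0.21, -0.03 and -0.17.

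**Figure D4:**
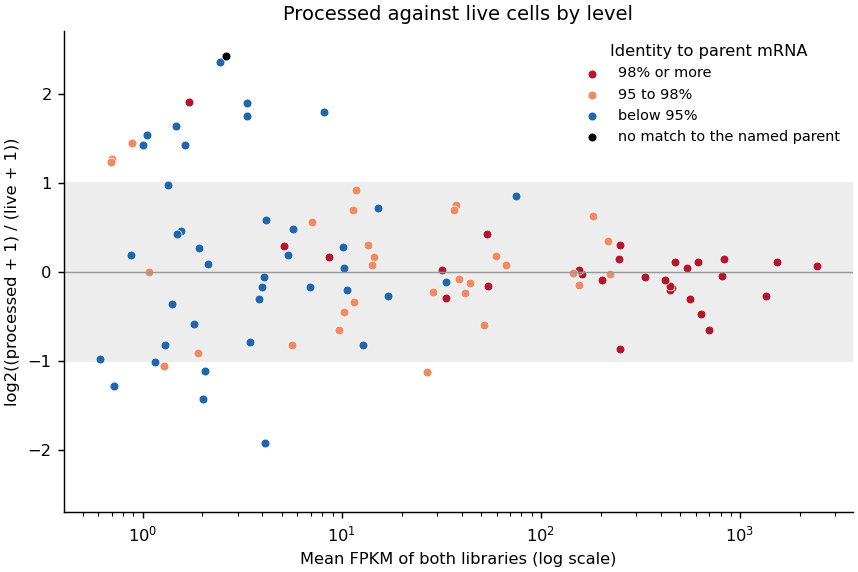
Log2((processed FPKM + 1) / (live FPKM + 1)) of the 100 expressed pseudogenes (y axis) against the mean FPKM of both libraries (x axis, log scale), coloured by identity to the parent mRNA, with the grey band marking less than 2-fold. The points beyond the band lie below 10 FPKM except RPL29P11, and the 27 at 100 or more stay inside it.

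Some of the pseudogenes lie inside another gene. Of the 100, 38 overlapped another expressed gene and 62 overlapped none. Compared with the highest gene that each overlapped, 12 lay on the same strand and 24 on the opposite strand. For 2 the strands were not compared. RPS26P55 is among the 2 because strand was taken from the alignment to the named parent. RPS27AP2 lies opposite BFSP1, a lens filament protein gene, which measured 2.95 FPKM in live and 1.02 in processed cells. Pseudogene and host were both lower in processed cells. RPS26P55 lies within KIAA0355, which measured 8.56 and 5.63, the opposite order. Of the 13 higher and 7 lower pseudogenes beyond 2-fold, 8 and 4 overlapped another expressed gene. How strand was used in the counting is not given in the sources used here, and the part of the host gene's reads in these values was not tested.

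At the threshold of the rule, RPS27P25 (0.754 and 1) and RPSAP14 (1.09 and 1.08) were the expressed pseudogenes just inside it, and RPS10P3 (0.435 and 0.997) and RPL10P3 (0.970 and 0.234) those just outside. In all, 79 had at least 1 FPKM in both libraries, 7 in live cells only and 14 in processed cells only. RPL21P1 was listed at 0 in live and at 1.41 in processed cells, and RPLP1P11 was listed at 1.43 in live and at 0 in processed cells with the status LOWDATA. Of the 100, 14 were LOWDATA in both libraries and 85 were OK in both.

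The functional ribosomal protein genes give the background for their copies. All 80 of a list of cytosolic ribosomal protein genes were expressed, with a median of 684 FPKM in live and 644 in processed cells. For 33 of them the name rule found no expressed pseudogene. Some of the 33 had expressed copies under other names, such as RPL17 with RP4-706A16.3, now RPL17P6, at 546 and 530 FPKM. The median log2 ratio of the 80 genes was -0.03. Of the 80, 1 gene, RPL36A, was more than 2-fold higher in processed cells, at 8.55 and 56.0 FPKM, and 0 were more than 2-fold lower. Processed pseudogenes of other genes, by the later annotation, numbered 1017 at 1 FPKM or more in 1 or both libraries, with a median of 3 in live and 2.92 in processed cells. In processed cells, 11.7% of these were higher and 17.5% lower by more than 2-fold, beside 6.57% and 6.19% of all expressed genes. The median log2 ratio of these pseudogenes was -0.12.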

How the data were processed

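RNA-seq of 1 live and 1 processed sample was used. The authors used STAR 2.2.0c to align reads to GRCh37/hg19, guided by GENCODE release 14, and deposited FPKM per gene with a lower and an upper bound and a status, from Cufflinks 2.0.2 per the labels (the methods name Cuffdiff). The level of the bounds and the treatment of reads that map to several places are not given in the sources used here. The bounds give the precision within each library.

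Genes were joined by Ensembl identifier, and pseudogenes were matched to the parent named before the final P. Log2 ratios used a pseudocount of 1, on the log2(FPKM + 1) scale, which understates changes of low genes. The pseudogenes and gene lists were chosen with earlier results of these data known. Each locus, taken from the GRCh37 genome by the files' coordinates, was aligned with blastn 2.17.0 (E-value at most 1e-10) to the parent's representative mRNA in GENCODE release 44 mapped to GRCh37, which holds the coding sequences shown, and identity is that of the aligned stretch. Windows of 80 nt were searched in the whole genome on both strands. Separate bounds means that the lower bound in 1 library is above the upper bound in the other.

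Named pseudogenes are the 10 with the highest mean FPKM, the 6 largest positive and 6 largest negative ratios with status OK in both libraries, 2 just inside and 2 just outside the threshold, their parents, and the 3 parents with the most expressed copies. Other members of the families shown, hosts, RPL36A and values at 0 were named after their values were seen. Calculations used Python 3.11.15, numpy 2.4.6 and pandas 2.3.3 and were tested on simulated data. Alternatives covered the pseudocount, the filter, status, overlap and scaling.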

Additional observations from a re-analysis of the deposited data

How the results depend on the processing

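With 1 library per condition, no result has a replicate check, and leaving out a library was not possible. No paired analysis was possible because each condition has 1 library. Of 46 values under other settings, 32 kept within 1.5 times of the reported count or within the spread set for it, and 14 moved. The counts beyond 2-fold, reported as 13 higher and 7 lower, moved most. A pseudocount of 0.1 gave 14 higher and 11 lower, and a pseudocount of 5 gave 1 and 0. An FPKM of at least 5 in 1 library gave 4 and 2 among 70 pseudogenes. The 62 without overlap with another expressed gene gave 5 and 3, with separate bounds in 35. An FPKM of at least 1 in both libraries, chosen after seeing the data, gave 1 and 2 among 79, so that lower outnumbered higher, and the median log2 ratio changed sign, to -0.026 in place of 0.017. These alternatives other than the pseudocounts hold fewer pseudogenes. No share of all genes is given for any of these settings. Division of processed FPKM by its median ratio to live FPKM (0.932) gave 15 and 6 and a median log2 ratio of 0.117. Without a filter on low values, all 547 pseudogenes summed to 29.9% of their parents in live and 29.9% in processed cells, in place of 46.8% and 47.0%, with a median of 0% in both, since the sum then covers more parents. Of the 20 pseudogenes beyond 2-fold, 15 had a mean below 3 FPKM.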

Other observations

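Further copies of ribosomal protein genes carry other names in the files, mostly those of clones, and were therefore not found by the name rule. The later annotation gives ribosomal protein pseudogene names to 156 expressed genes of this kind, out of 1014 in the files. Their FPKM summed to 9848 in live and 9760 in processed cells, and the live sum was 61.0% of that of the 100 pseudogenes found by name. The highest was RP11-466H18.1, now RPL36AP37, with 892 FPKM in live and 810 in processed cells and the status LOWDATA in both. RPL36A itself measured 8.55 and 56.0. RP11-122C9.1, now RPL7P9, measured 746 and 764, CTB-63M22.1, now RPLP0P9, measured 643 and 686, RP4-706A16.3, now RPL17P6, measured 546 and 530, and RP11-234A1.1, now RPS18P5, measured 544 and 481.

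Of the 156, 28 (17.9%) were higher in processed cells by more than 2-fold, beside 6.57% of all expressed genes. Of these 28, 23 were below 1 FPKM in live cells. Another 19 (12.2%) were more than 2-fold lower, beside 6.19% of all expressed genes, and 16 of them were below 1 in processed cells. Among all expressed genes with a mean below 3 FPKM, 14.3% were higher and 15.7% lower by more than 2-fold. The median log2 ratio of the 156 was 0.09, and 24 of the 156 were at 100 FPKM or more in both libraries.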
